A study of Mus musculus with 2 samples.

Results

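Mir335, Mir483, Mir296, Mir298 and Mir675 are miRNA genes of the imprinted Mest, Igf2, Gnas and H19 loci of the mouse, chosen by name and described as a set because their host RNAs are made from 1 parental chromosome. They are 5 of the 1973 genes with a row in the count tables. The tables come from small RNA of stomach, in the size class under 30 nucleotides, at embryonic day 16.5. The series held 1 group of 2 biological replicates of the B6NCrl strain, each a pool of tissue from healthy male and female embryos with no treatment or engineered allele in the labels. Replicate 2 pooled 41 embryos, and the labels give no number for replicate 1. Both pools carry the same donor label, so the spread between them may be partly technical.

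Imprinting marks a gene in the egg or the sperm, and the offspring then transcribes it from 1 parental copy. Mest, a growth-related gene, Igf2, the gene of an insulin-like growth factor, and Nespas, an antisense RNA of the Gnas locus, are transcribed from the paternal chromosome in the mouse embryo, and the long non-coding RNA H19 from the maternal one. Many imprinted genes act on fetal growth, and their RNA falls after birth. A miRNA hairpin inside such a transcript is cut out of it by Drosha and Dicer, and its mature strand then represses mRNAs that pair with its seed, bases 2 to 8 from the 5′ end. The count tables hold no allele information, so parental origin is background knowledge about the host and was not measured here.

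The 10 mature miRNAs of the 5 hairpins are shown with the seed in capitals, because the seed sets which mRNAs a miRNA can pair with. The sequences are from RefSeq (GRCm38.p6), and all 5 genes had an entry.
miR-335-5p: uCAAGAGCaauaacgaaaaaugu
miR-335-3p: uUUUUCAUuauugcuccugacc
miR-483-5p: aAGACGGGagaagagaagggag
miR-483-3p: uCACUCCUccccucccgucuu
miR-296-5p: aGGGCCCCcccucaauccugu
miR-296-3p: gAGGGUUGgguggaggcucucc
miR-298-5p: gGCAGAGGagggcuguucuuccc
miR-298-3p: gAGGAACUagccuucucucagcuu
miR-675-5p: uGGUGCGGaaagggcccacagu
miR-675-3p: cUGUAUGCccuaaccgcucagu
The 10 seeds were all different. None of the 1728 mature miRNAs of other genes in the RefSeq table had any of these seeds, so each gene stood outside the seed families of that table. The neighbours Mir296 and Mir298 did not share a seed either. Counts were made per hairpin, so reads of the 5p and the 3p strand were not told apart, and the values that follow belong to both strands together.

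The hairpins of the most and the least abundant of these genes are shown with the mature strands in capitals, because they also lie far apart in base composition.
Mir335: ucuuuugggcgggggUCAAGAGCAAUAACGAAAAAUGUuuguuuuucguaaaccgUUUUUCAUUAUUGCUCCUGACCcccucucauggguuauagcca
Mir675: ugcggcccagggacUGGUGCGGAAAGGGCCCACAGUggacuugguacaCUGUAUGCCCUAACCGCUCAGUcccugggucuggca
G and C made up 42.9% of the Mir335 hairpin and 63.1% of the Mir675 hairpin, against a median of 51.7% over 1005 hairpins. The other GC contents were 58.9% for Mir483, 63.3% for Mir296 and 53.7% for Mir298, so Mir335 alone was below the median. Its mature 5p strand held 30.4% G and C. No stretch of 18 bases of any of the 5 hairpins occurred in another of the 2202 annotated miRNA transcripts. The mature sequences matched no annotated transcript other than their own gene and, for Mir675, its host H19. Apart from H19 for Mir675, the mature sequences therefore had no second annotated transcript to match exactly. Stretches outside them were compared only with miRNA transcripts, and the rest of the genome was not searched.

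The genes lie at 3 places (GRCm38, the assembly that mm10 names). Mir335, at chr6:30741299-30741396 on the plus strand, was intronic in 7 of the 11 annotated Mest transcripts, and the other 4 did not reach it. Mir483, at chr7:142654924-142654996 on the minus strand, was intronic in 7 of the 9 Igf2 transcripts and outside the other 2. It was also intronic in Gm49394, an annotated gene that overlaps Igf2 on the same strand. Mir675, at chr7:142577064-142577147 on the minus strand, lay in an exon of 3 of the 7 H19 transcripts, in an intron of 1, and outside the other 3. Of the 1973 counted genes, 1894 had an annotated position. Mir675 and Mir483 were 77.8 kb apart, and no other of these 1894 lay within 100 kb of either or of Mir335. Mir296, at chr2:174267047-174267125, and Mir298, at chr2:174267504-174267585, lay 379 bases apart on the minus strand. The one other gene of these 1894 within 100 kb of them, Gm27591, had 0 reads in both libraries. Both were outside every annotated gene of that strand, 14.1 kb and 13.7 kb beyond the annotated 3′ end of Nespas, the antisense transcript to which these miRNAs are attributed in the mouse. That attribution is thus background knowledge, not a feature of the annotation used here.

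The libraries were of like depth, with 7734578 sense-assigned reads out of 15746238 in replicate 1 and 7983714 out of 15958656 in replicate 2. Markers listed for the tissue were present. The summed level of Mir143 and Mir145a, of smooth muscle, was 202084 CPM in replicate 1 and 197398 CPM in replicate 2, where CPM are counts-per-million of the sense-assigned reads. Nearly all of it was Mir143, while Mir145a had 5317 and 2540 CPM. The miR-200 family, of epithelium, summed to 50884 and 51089 CPM. Of the other lists, that of striated muscle stood apart, with 9 of 10 genes having a row. Its sum was 3363 CPM in replicate 1 and 205 CPM in replicate 2, and its members Mir133a-1 and Mir133a-2 were at 0 in both libraries.

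All 5 genes were expressed well above the floor, and their levels spanned from 155 to 36512 CPM. Of all 1973 genes, 683 had a sense read in replicate 1 and 684 in replicate 2, and 289 reached a mean of 10 CPM. Mir335 stood far above the rest, Mir296, Mir298 and Mir483 formed a middle group from 1644 to 2530 CPM, and Mir675 was lowest. Their summed share of the sense-assigned reads averaged 4.25% ± 0.904 (SD, n = 2). It was 4.89% for replicate 1 and 3.62% for replicate 2. A floor of 3 counts corresponds to 0.388 CPM for replicate 1 and 0.376 CPM for replicate 2. A short read covers about 1 whole mature miRNA whatever the hairpin length, so levels were not divided by hairpin length unless stated. Levels of different genes are compared as reads, not as molecules. How evenly the libraries captured different sequences was not measured. In whole tissue, fewer cells of a type and less RNA per cell cannot be told apart.

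**Figure D1:**
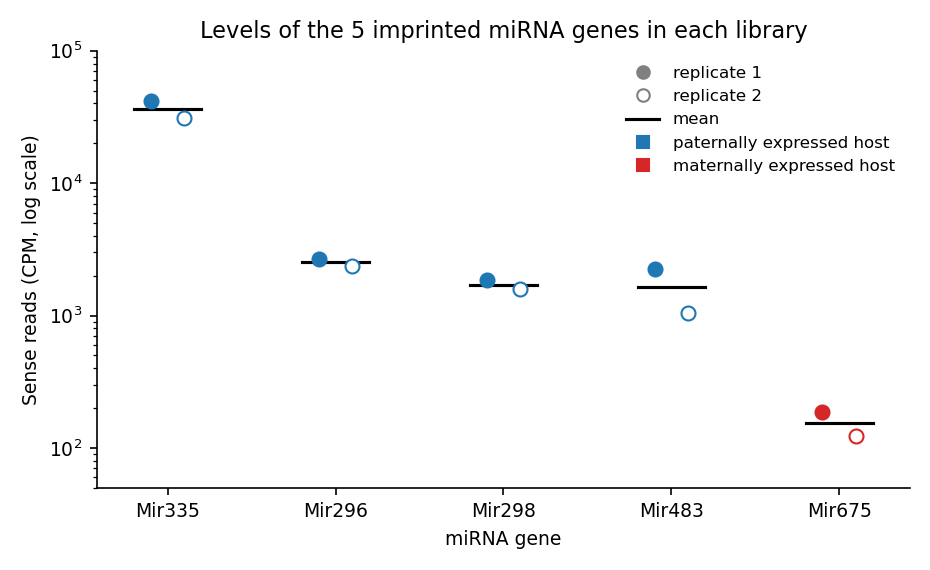
Sense reads in counts-per-million (log axis) for each gene, ordered by mean, with replicate 1 as filled and replicate 2 as open circles and a line at the mean of both. Mir335 lies at 41972 and 31052 CPM, and Mir675, the only gene with a maternally expressed host, at 185 and 124 CPM.

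Among the genes with a paternally expressed host, Mir335 was the most abundant. In human breast cancer cells its miRNA is known to restrain metastasis through SOX4 and tenascin C. It had 324634 reads in replicate 1 and 247910 in replicate 2, or 41972 and 31052 CPM. The share was 4.20% of the sense-assigned reads of replicate 1, with an exact Clopper-Pearson 95% interval from 4.18% to 4.21%, against 3.11% of those of replicate 2, from 3.09% to 3.12%. The mean was 36512 ± 7721 CPM (SD, n = 2), the fifth highest of all genes in each library. Mirlet7i, one rank above at 48456 ± 2196 CPM, was higher in both libraries. Mir10a, one rank below at 29647 ± 2450 CPM, was lower in both, though the gap in the means was less than the SD of Mir335. Its level was thus higher than that of 98.3% of the 289 genes with a mean of 10 CPM or more, whose median was 309 CPM.

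Mir483, the other intronic gene, is hosted by Igf2, the fetal growth factor gene. It had 17353 reads in replicate 1 and 8334 in replicate 2, which came to 2244 and 1044 CPM. Replicate 1 was the higher, and the SD was more than 50% of the mean, at 1644 ± 848 CPM (SD, n = 2, a coefficient of variation of 51.6%). Its rank was 67 in replicate 1 and 93 in replicate 2.

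The Gnas pair was the steadiest of the genes. Mir296, whose miRNA is known from human endothelial cells as a promoter of vessel growth, had 20860 and 18861 reads, or 2697 and 2362 CPM, with a mean of 2530 ± 237 CPM (SD, n = 2). Mir298, whose miRNA in mouse can repress Bace1, the gene of a protease that cuts the amyloid precursor protein, had 14267 and 12570 reads, or 1845 and 1574 CPM, with a mean of 1710 ± 191 CPM. Mir296 was the higher in both libraries, and their coefficients of variation were 9.35% and 11.2%. The ranks of Mir296 were 60 and 59, and those of Mir298 were 72 and 74.

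Mir675, which restrains growth of the mouse placenta and targets Igf1r, was the sole gene here with a maternally expressed host. It had 1434 reads in replicate 1 and 990 in replicate 2, or 185 and 124 CPM. Its mean of 155 ± 43.4 CPM (SD, n = 2) placed it above 40.1% of the 289 genes, below their median. The share of Mir675 was 0.0185% of the reads in replicate 1, by the same method between 0.0176% and 0.0195%, against 0.0124% in replicate 2, between 0.0116% and 0.0132%. These intervals, like all others given, cover counting error of reads only and leave out variation between pools. The sources used here name no molecular identifiers, so copies of 1 molecule may be counted more than once.

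The order of the 5 levels, in reads, was settled at its ends and not in its middle. Mir335 was the highest and Mir675 the lowest in each library, with Mir296 next after Mir335. The means of Mir298 and Mir483 differed by less than the SD of Mir483. Mir298 reached 0.822 times Mir483 in replicate 1 and 1.51 times in replicate 2. The log2 of Mir298 over Mir483 turned from 0.06 for the mean CPM to -0.11 when each level was divided by hairpin length.

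By parental origin of the host, the 4 genes with paternally expressed hosts summed to 42395 ± 8997 CPM (SD, n = 2), against 155 ± 43.4 CPM for Mir675. The ratio of the paternal sum to Mir675 was 263 in replicate 1 and 291 in replicate 2. Mir335 supplied 86.1% of the paternal sum in replicate 1 and 86.2% in replicate 2. With Mir335 left out, the ratio was 36.6 in replicate 1 and 40.2 in replicate 2, so it stayed above 1 by more than the spread between the libraries. The maternal side consists of a single gene, and no test over samples compares the origins.

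The H19 and Igf2 genes are neighbours with opposite parental expression. Of their miRNA genes, Mir483, with the paternally expressed host, was also the higher. The RNA of the hosts themselves was not counted, so their levels were not compared. Mir483 had 12.1 reads per read of Mir675 in replicate 1 (exact 95% interval 11.5 to 12.8) and 8.42 in replicate 2 (7.88 to 9.00). The ratio was thus 1.44 times larger in replicate 1, and the intervals did not overlap. Ratios of genes within a library do not depend on the scaling between libraries.

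Other imprinted miRNA clusters gave a different picture of the origins. The cluster between Dlk1 and Dio3 on chromosome 12 is taken here as maternally expressed. It held 59 counted genes, listed by position, of which 43 reached 10 CPM in both libraries. The list was not split by strand, and 6 of the 59 are annotated on the minus strand. The cluster summed to 65911 ± 7492 CPM (SD, n = 2), led by Mir411 at 12259 ± 563, Mir127 at 8433 ± 717 and Mir487b at 7531 ± 725 CPM. Its sum was above that of the 5 genes in both libraries, at 71208 against 48942 CPM in replicate 1 and 60613 against 36157 CPM in replicate 2. No gene of the cluster reached the mean of Mir335. The cluster in Sfmbt2, taken here as paternally expressed, held 107 genes, of which 8 reached 10 CPM in both libraries. The same numbers, 43 and 8, reached a mean of 10 CPM, against 289 of all 1973 genes. As for the sums, that of Sfmbt2 was the lowest. The Sfmbt2 cluster summed to 5211 ± 548 CPM, and its highest were Mir467e at 1621 ± 289, Mir467d at 1581 ± 121 and Mir467c at 1080 ± 35.3 CPM. Of its genes, 105 share an 18-base stretch with another miRNA gene, against 14 of the 59 and 0 of the 5. Reads that align in more than 1 position have a separate total in the tables, so the sum of Sfmbt2 may lack reads. That of Dlk1-Dio3 leaves out the reads opposite to its annotated genes, which averaged 11085 CPM. Across these loci, neither assigned origin was uniformly the higher, and no test of origin was made. The origins are background knowledge about the loci and were not measured in this tissue.

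**Figure D2:**
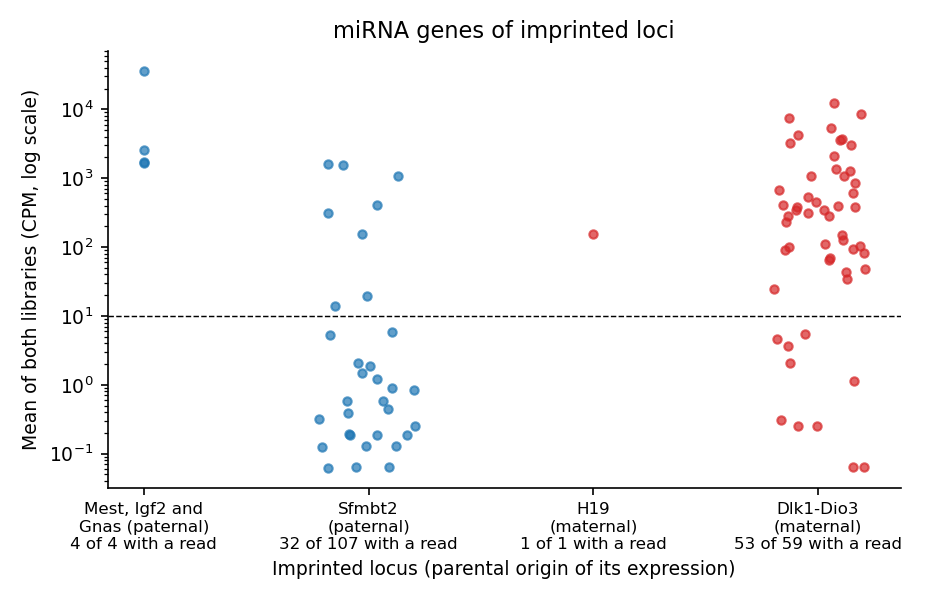
Mean level of each miRNA gene with a read (counts-per-million, log axis) at imprinted loci, with a dashed line at 10 CPM. Blue marks loci taken as paternally expressed and red loci taken as maternally expressed, which was not measured here. Mir675 of H19 lies at 155 CPM, inside the range of the Dlk1-Dio3 genes, while Mir335 at 36512 CPM lies above every gene of the other loci.

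Between the libraries, the H19-Igf2 genes and Mir335 were higher in replicate 1 and the Gnas genes were nearly level. After scaling by trimmed mean of M values (TMM), Mir483 was 1.95-fold higher in replicate 1 (95% interval 1.90 to 2.00 for counting error), Mir675 1.35-fold (1.25 to 1.47) and Mir335 1.22-fold (1.22 to 1.23). Mir298 was 1.06-fold higher (1.04 to 1.09) and Mir296 1.03-fold (1.01 to 1.05), but the log2 ratio of Mir296 was -0.0014 with DESeq2 size factors, so it has no settled direction. At the 2-fold threshold, 0 of the 5 genes were past it, against 7.96% of the 289 genes (23), of which 22 (7.61%) were higher in replicate 1. Each ratio compares 1 library with 1 library, so no p-value is given. The median log2 ratio of the 5 genes was 0.29, and that of all 289 was 0.06.

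The call for Mir483 depended on the scaling. With total assigned reads, Mir483 was 2.15-fold higher in replicate 1 and past the threshold, as 29 of the 289 genes were (10%). A change of scaling shifts the log2 ratio of every gene by 1 constant, and the median of all 289 genes was 0.21 with that scaling, against 0.06 with TMM. Its TMM ratio exceeded in size that of 90.3% of the 289 genes, and the figures were 71.3% for Mir675, 59.5% for Mir335, 21.1% for Mir298 and 9.69% for Mir296.

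**Figure D3:**
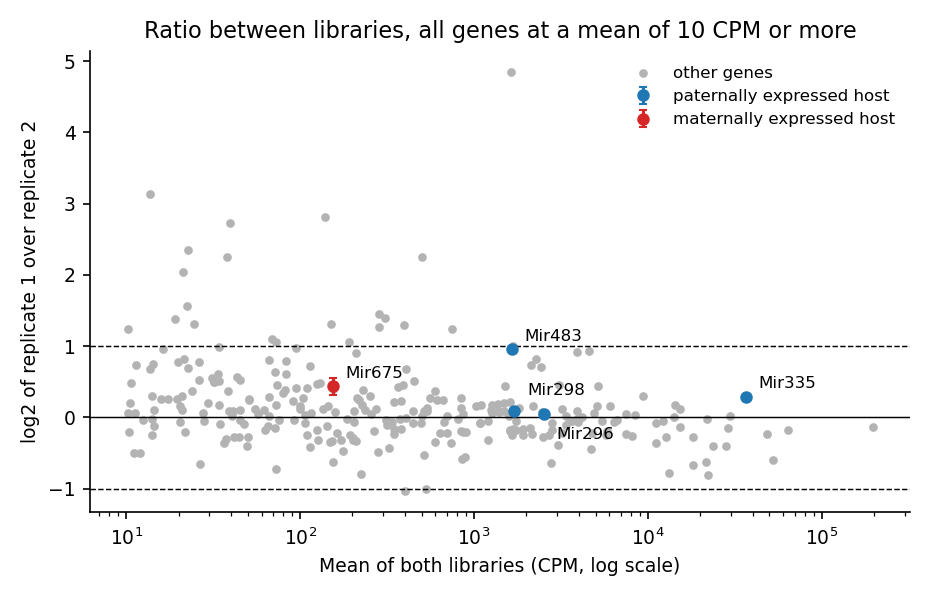
TMM-scaled log2 ratio of replicate 1 over replicate 2 against the mean level (counts-per-million, log axis) for 289 genes, with bars for the 95% counting interval of the named genes and dashed lines at 2-fold. Mir483 lies at 0.96, just under the upper dashed line, and Mir296 and Mir298 lie at 0.05 and 0.09.

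Within several marker lists some genes were higher in replicate 1 and others were level or lower. Of striated muscle, Mir206 had 3184 CPM in replicate 1 and 99.8 CPM in replicate 2. On the TMM-scaled log2 ratio of replicate 1 over replicate 2, Mir206 stood at 4.85, Mir133b at 3.14 and Mir499 at 2.35. Its other members with a read were Mir208a at 0.38, Mir208b at 0.16, and Mir1a-1 and Mir1b with 4 and 8 reads in replicate 1 and 3 and 22 in replicate 2. Of smooth muscle, Mir145a stood at 0.92, close to the 0.96 of Mir483, and Mir143 at -0.13. The 4 mesenchymal genes had a sum of 9313 CPM in replicate 1, against 7559 CPM in replicate 2, with log2 ratios of 1.00 for Mir199b, 0.73 for Mir199a-1, 0.03 for Mir199a-2 and -0.04 for Mir214, the most abundant of them.

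The 3 erythroid genes had a sum of 1240 CPM in replicate 1, against 591 CPM in replicate 2, and Mir451a at a log2 ratio of 1.23 carried this sum, beside 0.11 for Mir486 and -0.34 for Mir144. The liver gene Mir122, the only one of its list, had 1821 CPM in replicate 1 and 1210 CPM in replicate 2, and stood at 0.45. The 4 gut epithelial genes lay between -0.18 for Mir215 and 0.20 for Mir192, and the endothelial gene Mir126a at -0.14. Of the stratified epithelial genes, Mir203 stood at -0.81 and Mir205 at -0.08. The miR-200 family lay between -0.40 for Mir429 and 0.29 for Mir200b. Of the 6 neuronal genes with a row, Mir137 stood at 0.17, Mir9-3 had 17 reads in replicate 1 and 14 in replicate 2, Mir9-2 had 0 and 1, and Mir124a-1, Mir124a-2 and Mir124a-3 were at 0. The part of any of these cells in the ratios of Mir483, Mir675 and Mir335 was not tested.

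Genes with the most similar level in both libraries were found by the Euclidean distance of log2(CPM + 1) over the 2 libraries. Nearest to Mir483 was Mir199b, a mesenchymal gene, at 2300 and 1040 CPM and a distance of 0.036. Mir122 and Mir467e followed at 0.37 and 0.53. Nearest to Mir675 was Mir669c of the Sfmbt2 cluster, at 185 and 126 CPM and a distance of 0.028, followed by Mir1306 and Mir148b. Nearest to Mir335 were Mir10a at 0.45, Mir126a at 0.54 and Mirlet7i at 0.71. For Mir296 they were Mir342, Mir18 and Mir27b, from 0.060 to 0.23, and for Mir298 they were Mir872, Mir324 and Mir140, from 0.11 to 0.15. With 2 libraries such a distance mainly reflects similar abundance.

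On the opposite strand the genes had almost no reads. Mir335 had 1 such read in replicate 1 and 2 in replicate 2, and the other 4 genes had 0 in both libraries, which is at or below the floor of 3 counts. Igf2 and Nespas belong to loci with transcripts on both strands, and no short read of the other strand was counted at these hairpins.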

How the data were processed

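Per the file headers, the authors aligned the reads to mm10 and counted them per gene of GENCODE M4, and the deposited values are raw read counts. Not given in the sources used here are the aligner, the counter and the trimming. Each table has counts without regard to strand and for each strand, and the strand with the larger total was taken as sense. The 4 summary totals name no gene and were left out. In replicate 1 they came to 49.2% of all reads and in replicate 2 to 48.5%. Reads with several positions, which by inference no gene count holds, were 25.1% and 25.2% of the total.

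Symbols and positions came from GENCODE M21 (GRCm38), which matched 1894 of the 1973 identifiers, and sequences from RefSeq. Levels are CPM of sense reads. Ratios used TMM over all genes (edgeR 4.0.16, R 4.3.3), 0.5 added to each count, and exact binomial intervals, over genes with a mean of 10 CPM or more; called means 2-fold or more. DESeq2 1.42.0 gave alternative size factors. With 1 group no contrast between conditions could be fitted. The ratio was tested on simulated data that held counting error only. That test cannot show how the ratio behaves under further variation between pools. Python 3.11.15, numpy 2.4.6, pandas 2.3.3, scipy 1.17.1 and matplotlib 3.10.9 were used.

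The genes and lists were chosen with earlier results of these data known. Genes named were the 5 genes, the 3 nearest in level to each, genes sharing a seed, genes within 100 kb, the 3 highest of each cluster and the markers. The comparison of neighbouring pairs was chosen after the values were seen. The alternatives covered strand, scaling, hairpin length, filters, pseudocounts, the fold and each library left out.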

Additional observations from a re-analysis of the deposited data

Results flagged for a closer look

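Opposite-strand reads at the genes of the Dlk1-Dio3 cluster, which the levels above leave out, averaged 11085 CPM, with 11740 CPM in replicate 1 and 10431 CPM in replicate 2. They stood out because they lie in a part of the tables that the comparisons do not use and exceed the floor of 3 counts. They were over the floor in both libraries at 6 of the 59 genes, including Mir337 of the plus strand, with 63 and 33. Of these reads, 99.94% lay at the 6 genes annotated on the minus strand, of which Mir1247 had 0 in both libraries. Reads opposite to minus-strand genes lie on the plus strand, where the other 53 genes of the cluster are annotated.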

How the results depend on the processing

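Counting both strands and scaling by TMM or DESeq2 size factors moved each of the 5 levels by less than its SD. Leaving Mir143 out of the total raised all 5 by 1.24 times, to 45410 CPM for Mir335, 3146 for Mir296, 2126 for Mir298, 2045 for Mir483 and 192 for Mir675. Dividing by hairpin length kept 3 of 5 places in the order and turned the log2 of Mir298 over Mir483 to -0.11. Leaving out a library kept 3 to 5 places and gave -0.28 to 0.59. The paternal to maternal ratio was 277 in the mean, 246 per hairpin length and 38.4 without Mir335. Single libraries gave 263 to 291.

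With total assigned reads, and with a 1.5-fold threshold, 1 of the 5 genes was past the threshold, in each case Mir483, against 0. The count over all genes was 269 of 751 with any sense read, 60 of 437 at a mean of 1 CPM and 58 of 289 at 1.5-fold, against 23 of 289. Of these, 146 were higher and 123 lower in replicate 1 with any read, 36 and 24 at 1 CPM, and 46 and 12 at 1.5-fold, against 22 and 1. The first pair of settings admits genes with few reads. The log2 ratio of Mir296 was -0.0014 with DESeq2 size factors, and that of Mir483 was 0.91 to 1.10 over the alternatives. A threshold of 1 or 100 CPM changed the counts of Dlk1-Dio3 and Sfmbt2 genes by less than 1.5 times. TMM over genes at 10 CPM, added after seeing the data, changed no call of the 5 genes. No paired analysis was possible because there is 1 group. With 2 libraries an SD is imprecise, and Mir675 rests on the fewest reads, 990 in replicate 2.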

Other observations

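Mir296 and Mir298 kept nearly the same proportion in both libraries. Mir298 had 0.684 reads per read of Mir296 in replicate 1 (exact 95% interval 0.669 to 0.699) and 0.666 in replicate 2 (0.652 to 0.682), a log2 difference of 0.037. Over 58 pairs of neighbouring genes on 1 strand, up to 1 kb apart and each at a mean of 10 CPM or more, the median size of that difference was 0.23, with 6 pairs below the Gnas pair and 51 above it. Mir483 and Mir675 differed by 0.52 on the same scale. Over the 51 pairs that lie farther apart, up to 100 kb, the median was 0.31, with 36 pairs below theirs and 14 above. Nearly all of the 51 lie closer together than Mir483 and Mir675, and many are consecutive genes of the Dlk1-Dio3 cluster. Pairs share genes with one another and differ in depth, so these are descriptions. Mir302b, for example, had 100 and 96 reads, against at least 12570 for each Gnas gene, and counting error weighs more with few reads.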
